A study of Mus musculus with 6 samples.

Results

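Interferon-stimulated genes were examined as a fixed list of 38 genes, picked by name as interferon-induced, by a rule that uses no measured value. The list was nonetheless chosen with earlier results of these data known. Of these, 37 had an entry among the 22880 genes of the deposited table and are called members here, and Mx2 is not analysed here. All 37 members passed the filter for low counts that left 12014 genes for testing. The libraries came from MC-38GFP cells, a mouse colon carcinoma line carrying green fluorescent protein, grown as tumors in the wall of the cecum of C57BL/6J mice and then sorted as GFP+ cells without CD45 and CD31. There were 3 libraries of Mock cells (nontarget control) and 3 of HIF-1α-KD cells with a stable knockdown of Hif1a, the oxygen-regulated subunit of hypoxia-inducible factor. Both groups had been transduced with the pLKO.1-puro vector, neither had been passaged in vivo before, and whether the HIF-1α-KD line is a single clone is not given in the sources used here. Libraries held between 19845852 and 30809139 reads on genes, the most in HIF-1α-KD replicate 1, and the next, Mock replicate 2, held 25089525. The sources do not say that each library came from a separate animal, so that p-values measure only the spread between these libraries.

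Interferons are secreted proteins that warn cells of infection or damage. Type I interferons signal through the receptor chains Ifnar1 and Ifnar2 to a complex with Stat2 and Irf9 that binds the interferon-stimulated response element (ISRE) in the promoters of its targets, whereas interferon gamma signals through Ifngr1 and Ifngr2 to targets with a gamma-activated site (GAS). The targets block viral entry, translation and replication, sense foreign nucleic acid, present antigen and feed back on the pathway, and in tumors they are read as a trace of interferon exposure or of nucleic acid sensing within the tumor cell. Several targets, among them Irf1 and the guanylate-binding proteins, are strongly induced by interferon gamma, whereas the IFIT, OAS and ISG15 genes are typical type I targets, although most of these genes answer to both.

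To show what interferon response motifs look like in these genes, 60-base stretches before the RefSeq start of 8 members are printed 5′ to 3′ on the strand of the gene, with the motif match in capitals. They were taken from the RefSeq promoter windows (GRCm38.p6, 250 bases before to 50 after the start). The ISRE core was searched as GAAA, 2 bases of any kind and GAAA again, on both strands, and the GAS core as TTCNNNGAA, which reads the same on both strands. On the other strand the ISRE core reads TTTC, 2 bases and TTTC. The 7 members shown for the ISRE core were picked after their values were seen. Of these, Isg15, Ifit1, Rsad2 and Oas1a were low in HIF-1α-KD replicate 1. The guanylate-binding proteins Gbp2 and Gbp7 were also lowest in HIF-1α-KD replicate 1, and they were highest in HIF-1α-KD replicate 2. Bst2 was neither low in the first of these libraries nor high in the second. Irf1 is shown for its GAS core. For Gbp2 the stretch lies before the RefSeq start but reaches past the start of the GENCODE gene model given below.
Isg15, chr4:156200856-156200915, minus strand: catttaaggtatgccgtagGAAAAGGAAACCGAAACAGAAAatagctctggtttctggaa
Ifit1, chr19:34640769-34640828, plus strand: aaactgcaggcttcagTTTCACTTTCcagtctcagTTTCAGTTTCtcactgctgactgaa
Rsad2, chr12:26456538-26456597, minus strand: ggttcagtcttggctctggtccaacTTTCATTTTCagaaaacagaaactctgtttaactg
Oas1a, chr5:120907526-120907585, minus strand: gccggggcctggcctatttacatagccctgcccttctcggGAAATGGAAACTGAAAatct
Gbp2, chr3:142620579-142620638, plus strand: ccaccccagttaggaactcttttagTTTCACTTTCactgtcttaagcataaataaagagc
Gbp7, chr3:142530258-142530317, plus strand: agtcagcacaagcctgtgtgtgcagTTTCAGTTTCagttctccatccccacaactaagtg
Bst2, chr8:71537565-71537624, minus strand: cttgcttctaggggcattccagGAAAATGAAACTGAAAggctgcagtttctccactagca
Irf1, chr11:53769898-53769957, plus strand: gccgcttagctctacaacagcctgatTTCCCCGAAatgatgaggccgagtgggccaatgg
RefSeq windows were matched for 30 of the 37 members, with 34 windows in all. The ISRE core was present in 16 of the 34 windows (47.1%), against 3.44% of 32851 windows of all genes. The GAS core was present in 9 of the 34 windows (26.5%), against 8.30% of all windows. Both cores were present in 6 member windows, and in 2 of these the matches overlapped. A match describes the letters of these windows only.

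By length-corrected level (FPKM, fragments corrected for transcript length and library depth), Ifitm3, a membrane protein that blocks viral entry, stood first with a mean of 466 over the 6 libraries and a range of 336 to 563. It was followed by Bst2 (243, range 151 to 340), which tethers budding virus to the cell surface, Lgals3bp (187, range 80.7 to 268), a secreted glycoprotein, and Irf1 (158, range 122 to 221), a transcription factor. The ranges of these neighbours overlapped. At the lower end were Cmpk2 (6.01), a mitochondrial nucleotide kinase, Gbp7 (5.04) and Mx1 (2.52), an antiviral GTPase whose gene is defective in most laboratory strains, C57BL/6 included. Every member was above 0 in all 6 libraries, and the fewest reads behind any value were 55, for Usp18 in HIF-1α-KD replicate 1.

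HIF-1α-KD replicate 1 stood apart from the other libraries for these genes, and results are therefore given with and without it. The normalized count of Hif1a itself was 6914, 5424 and 4945 in Mock replicates 1, 2 and 3 and 697, 3142 and 1928 in HIF-1α-KD replicates 1, 2 and 3. The groups did not overlap, and HIF-1α-KD replicate 1 was the lowest (log2 fold change -1.82, SE 0.46, limma adjusted p = 0.219, and -1.21 without that library). In this library the sum of 13 macrophage and monocyte markers, all above 0 in every library, was 3754, and in HIF-1α-KD replicates 2 and 3 it was 4127 and 19216, against 6283 to 6850 in Mock. The sum of 7 T and NK cell markers was between 4.02 and 22.0, with 1 to 4 of the 7 at 0 in a library, and none of the 7 passed the filter for low counts. The sum of 5 neutrophil markers was 22.5, 76.7 and 146 in HIF-1α-KD and 51.7 to 100.3 in Mock, with at most 1 of the 5 at 0. That of 6 endothelial markers was 344, 483 and 310 against 505 to 616, with at most 2 of the 6 at 0, and was carried by Cdh5, whereas the means of Tek, Pecam1 and Kdr were higher in HIF-1α-KD. That of 7 fibroblast markers, all above 0, was 430107, 339409 and 293375 against 106128 to 229887 and was carried by the collagens Col1a1 and Col3a1, whereas the mean of Dcn was lower in HIF-1α-KD (21517 against 28647) and Fap was at 12.1 in HIF-1α-KD replicate 1. The 7 epithelial markers were all above 0 but low for a carcinoma line, with sums of 66.0 to 588, and only 3 of the 7 passed the filter. In bulk libraries, fewer cells of a type and less RNA per cell cannot be told apart.

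Between the groups, no member passed an adjusted p-value of 0.05 in limma (adjusted p between 0.342 and 0.972), where 0.391% of all genes tested did. Rsad2 was the 1 of 37 members with an unadjusted limma p under 0.05, against 12.7% of all genes. By edgeR, 0 of 37 members had an adjusted p under 0.05 (all genes 0.391%) and 1 had an unadjusted p under 0.05, again Rsad2 (all genes 12.4%). By DESeq2 the numbers were 0 and 1, the latter being Gbp7, against 2.36% and 13% of all genes. Of the log2 fold changes, 17 were above 0 and 20 below, with a median of -0.11 (all genes 6332 above 0 and 5682 below, with a median of 0.02). By means of the normalized counts themselves, 19 members were higher in HIF-1α-KD and 18 lower, so that the balance depends on the scale. A fold change of at least 1.5 in size, without regard to a test, was found for 12 of 37 members, 2 higher and 10 lower, compared with 13.4% of all genes. Without HIF-1α-KD replicate 1 it was found for 8 members, 7 higher and 1 lower, compared with 14.2% of all genes. The values of the groups did not overlap for 2 of 37 members, Ifit2 and Rsad2, where 19.2% of all genes did not.

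**Figure D1:**
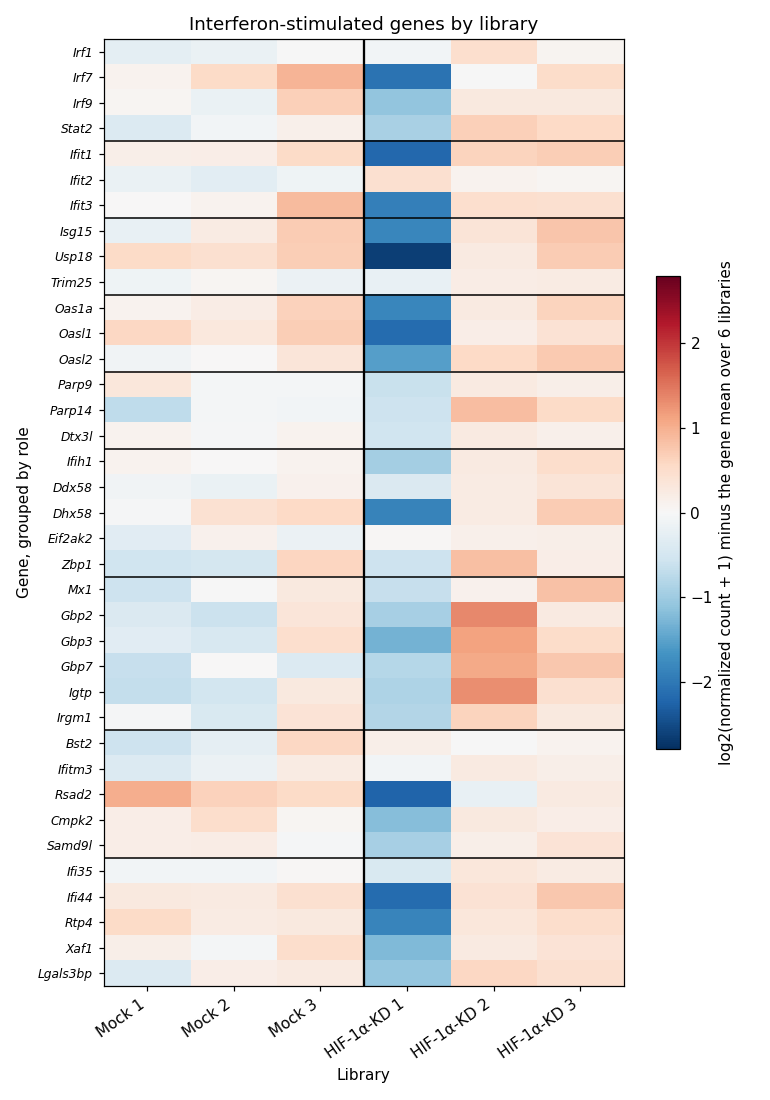
Heat map of the 37 members (vertical, grouped by role with lines between the groups) in the 6 libraries (horizontal). Color is log2(normalized count + 1) minus the mean of that gene over the 6 libraries, and the column of HIF-1α-KD replicate 1 is the lowest for 31 of 37 members.

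By library, most members were low together in HIF-1α-KD replicate 1. The median over the 37 members of the log2 deviation from the gene's mean over the 6 libraries was -0.08, 0.01 and 0.28 for Mock against -0.93, 0.28 and 0.40 for HIF-1α-KD, where for all genes it lay between -0.01 and 0.02. HIF-1α-KD replicate 1 held the lowest value for 31 of 37 members, as it did for 22.1% of all genes. Its value was under 0.5 times the median of the other 5 libraries for 23 of 37 members, against 7.39% of all genes. The members lowest in another library were Parp14, Irf1, Eif2ak2, Ifitm3 and Bst2 in Mock replicate 1, and Ifit2 in Mock replicate 2. The median SD of the members on the log2 scale was 0.26 within Mock (all genes 0.25) and 0.88 within HIF-1α-KD (all genes 0.21). Between HIF-1α-KD replicates 2 and 3 alone it was 0.14, as for all genes (0.14). The share of all reads that fell on the members was 0.193%, 0.221% and 0.265% for Mock against 0.154%, 0.336% and 0.295% in HIF-1α-KD. HIF-1α-KD replicate 1 was also the library with the lowest Hif1a. Its sums of macrophage and monocyte (3754), T and NK cell (4.02) and neutrophil markers (22.5) were the lowest as well. Its fibroblast marker sum (430107) was the highest. Of the macrophage and monocyte markers, however, Cd68, Csf1r, Cd14, Itgam and C1qc were lowest in HIF-1α-KD replicate 2. The part of any of these in the low values of the members was not tested.

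**Figure D2:**
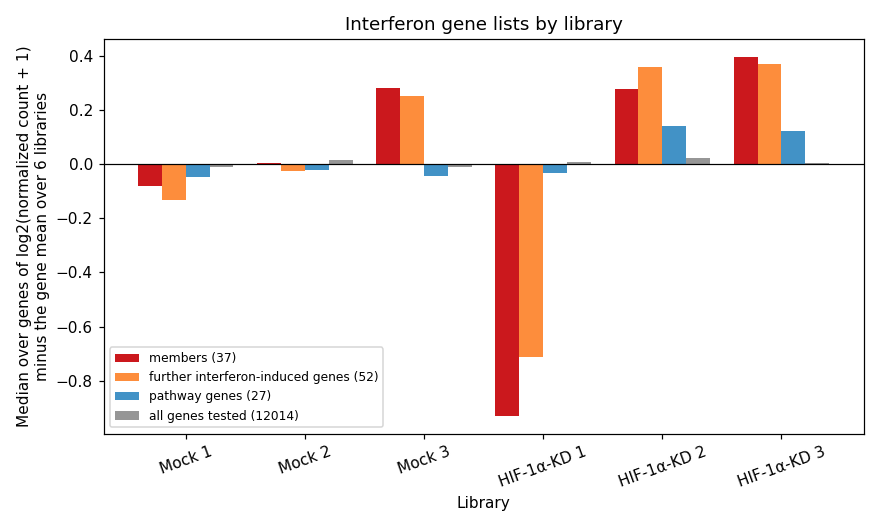
Median deviation of each gene list by library, on the log2 scale and relative to each gene's mean over the 6 libraries (vertical), for members, further interferon-induced genes, pathway genes and all genes tested (bars). The members lie at -0.93 in HIF-1α-KD replicate 1 and the pathway genes at -0.03.

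Among the antiviral effectors, Rsad2 (viperin, an enzyme that makes a chain-terminating nucleotide, chr12:26442746-26456452) had normalized counts of 1615, 1252 and 1154 in Mock against 168, 694 and 960 in HIF-1α-KD. All HIF-1α-KD libraries lay below all Mock libraries, and replicate 1 was 6.86-fold below the median of the other 5. The means were 1340 ± 243 (SD, n = 3) and 607 ± 403 (SD, n = 3). The log2 fold change was -1.46 (SE 0.55, 95% confidence interval -2.71 to -0.21, limma unadjusted p = 0.027, adjusted p = 0.342), and without HIF-1α-KD replicate 1 it was -0.70 (SE 0.22, limma adjusted p = 0.284). Its neighbour Cmpk2, 12.8 kb away on the opposite strand, had 506, 620 and 461 in Mock against 194, 540 and 504 in HIF-1α-KD. For Cmpk2 the groups overlapped, and only replicate 1 was low (log2 fold change -0.01 without it). Samd9l, a translation-restricting effector, had 2978, 3037 and 2564 in Mock against 1378, 2934 and 3419 in HIF-1α-KD, so that again a single library was low.

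Ifitm3 had 5839, 6838 and 9023 in Mock against 7203, 9077 and 8521 in HIF-1α-KD, and Bst2 had 2959, 3728 and 6633 against 4967, 4380 and 4735. Neither was low in HIF-1α-KD replicate 1, and the groups overlapped for both. The log2 fold change was 0.21 for Ifitm3 (SE 0.18, limma adjusted p = 0.671). Of the 4 members with the highest FPKM, only Lgals3bp was under 0.5 times the median of the other libraries in HIF-1α-KD replicate 1.

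**Figure D3:**
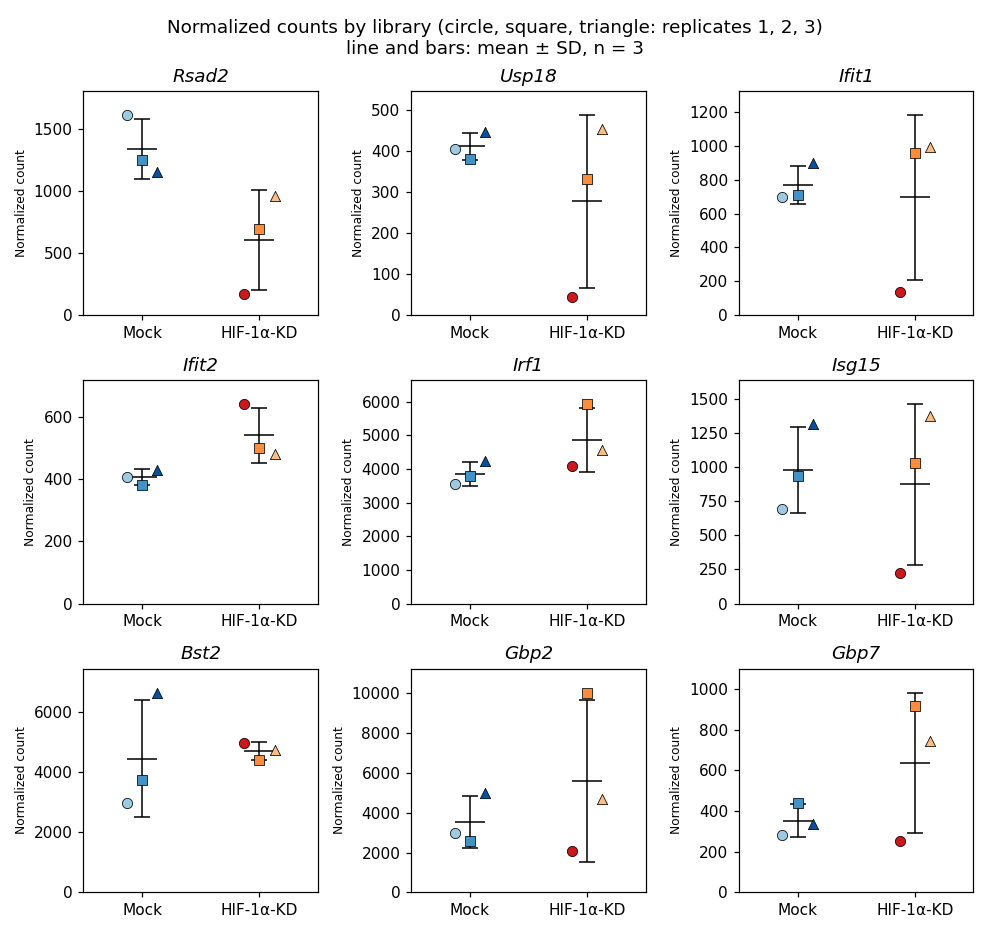
Normalized counts (vertical, linear from 0) of 9 members in Mock and HIF-1α-KD, with replicates 1, 2 and 3 as circle, square and triangle and the mean ± SD (n = 3) as line and bars. The circle of HIF-1α-KD replicate 1 lies at the bottom for Rsad2, Usp18, Ifit1, Isg15, Gbp2 and Gbp7, and at the top of its group for Ifit2 and Bst2.

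The IFIT family, proteins that bind foreign RNA ends and block their translation, lies in a cluster on chromosome 19. Ifit1 (chr19:34640871-34650009) had 699, 708 and 901 in Mock against 134, 961 and 997 in HIF-1α-KD, and Ifit3 (chr19:34583531-34588731) had 508, 546 and 946 in Mock against 134, 705 and 693 in HIF-1α-KD. For both, HIF-1α-KD replicate 1 was the lowest library, at 0.15 and 0.19 times the median of the other 5, and the other 2 lay within or above the Mock range. Ifit2 (chr19:34550694-34576419), 7.11 kb from Ifit3, had 408, 383 and 431 in Mock against 643, 499 and 482 in HIF-1α-KD, with HIF-1α-KD replicate 1 as its highest library. The 3 members of this cluster therefore differed in direction in HIF-1α-KD replicate 1. The groups did not overlap for Ifit2, with means of 407 ± 24.2 (SD, n = 3) and 541 ± 88.4 (SD, n = 3), and its log2 fold change of 0.40 (SE 0.18, 95% confidence interval -0.01 to 0.81, limma adjusted p = 0.405) did not pass the test. For Ifit3 the log2 fold change was -0.67 (SE 0.59, limma adjusted p = 0.673), and 0.13 without HIF-1α-KD replicate 1. Reads of Ifit3 could be shared with its near-identical copy Ifit3b, so that its value is uncertain.

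Isg15, a ubiquitin-like protein that is attached to other proteins and is also secreted, had normalized counts of 691, 936 and 1314 in Mock against 224, 1028 and 1371 in HIF-1α-KD. Usp18, the protease that removes Isg15 and also damps the type I receptor, had 405, 380 and 447 in Mock against 44.2, 332 and 454 in HIF-1α-KD. Usp18 had the lowest ratio of all members in HIF-1α-KD replicate 1, 0.11 times the median of the other 5 libraries, equal to 9.15-fold lower. Its log2 fold change was -1.11 (SE 0.73, limma adjusted p = 0.565), and -0.08 without that library. For Isg15 the values were -0.47 (SE 0.59, limma adjusted p = 0.781) and 0.33. Trim25, a ubiquitin ligase that activates the RNA sensor RIG-I, had 2209, 2474 and 2119 in Mock against 2069, 2765 and 2801 in HIF-1α-KD, so that all libraries lay close together (log2 fold change 0.16, SE 0.16, limma adjusted p = 0.728).

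The OAS family includes enzymes that make oligoadenylates, which activate RNase L. Oas1a had 470, 508 and 691 in Mock against 125, 525 and 684 in HIF-1α-KD. Oasl1 had 629, 513 and 672 in Mock against 93.3, 478 and 551 in HIF-1α-KD, and Oasl2, which lies 11.0 kb away from it on chromosome 5, had 1605, 1740 and 2174 against 590, 2518 and 2837. In all 3, HIF-1α-KD replicate 1 was the lowest library, at 0.24, 0.17 and 0.27 times the median of the others. HIF-1α-KD replicates 2 and 3 were above all Mock libraries for Oasl2 but within or below the Mock range for Oasl1. The log2 fold change of Oasl1 was -1.04 (SE 0.58, limma adjusted p = 0.496) and -0.23 without HIF-1α-KD replicate 1, and that of Oasl2 was -0.17 (SE 0.52, limma adjusted p = 0.914) and 0.55 without HIF-1α-KD replicate 1. Oas1a has close copies, Oas1g among them, that could share its reads.

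Among the transcription factors, Irf7, which drives type I interferon genes, had 411, 561 and 747 in Mock against 91.7, 384 and 551 in HIF-1α-KD. Irf9, the DNA-binding partner of Stat2, had 470, 395 and 720 against 210, 547 and 545. Both were lowest in HIF-1α-KD replicate 1, and both overlapped between the groups in the other libraries. The log2 fold change of Irf7 was -1.05 (SE 0.58, 95% confidence interval -2.37 to 0.28, limma adjusted p = 0.493), and -0.27 without HIF-1α-KD replicate 1. Stat2 had 864, 1069 and 1239 in Mock against 598, 1789 and 1665 in HIF-1α-KD, with replicates 2 and 3 above every Mock library. Irf1 (chr11:53770014-53778374) had 3548, 3787 and 4245 in Mock against 4094, 5934 and 4555 in HIF-1α-KD, so that HIF-1α-KD replicate 1 lay within the Mock range. Its log2 fold change was 0.32 (SE 0.17, 95% confidence interval -0.06 to 0.70, limma adjusted p = 0.474).

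Of the sensors of nucleic acid, Dhx58 (LGP2, a regulator of RIG-I and MDA5) had 192, 263 and 286 in Mock against 52.3, 228 and 319 in HIF-1α-KD (log2 fold change -0.64, SE 0.58, limma adjusted p = 0.685, and 0.14 without replicate 1). Ifih1, which encodes MDA5 and detects long double-stranded RNA, had 1028, 976 and 1030 in Mock against 501, 1157 and 1362 in HIF-1α-KD. Ddx58, which encodes RIG-I, had 2169, 2067 and 2539 in Mock against 1752, 2740 and 2982 in HIF-1α-KD. The ratio of HIF-1α-KD replicate 1 to the other libraries thus went from 0.20 for Dhx58 over 0.49 for Ifih1 to 0.69 for Ddx58, whose log2 fold change between the groups was 0.11 (SE 0.21, limma adjusted p = 0.856). Eif2ak2 (PKR, a kinase that stops translation) lay between 536 and 749 in all libraries, with a ratio of 0.93 in HIF-1α-KD replicate 1. Zbp1, a sensor of Z-form nucleic acid that can trigger necroptosis, had 1433, 1480 and 3166 in Mock against 1413, 3751 and 2393 in HIF-1α-KD. Here Mock replicate 3 and HIF-1α-KD replicate 2 were high, and the groups overlapped (log2 fold change 0.31, SE 0.39, limma adjusted p = 0.788).

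Parp9 and its partner Dtx3l, which overlap head to head on chromosome 16 and together modify ubiquitin and histones, had modest differences. Parp9 had 2193, 1702 and 1710 in Mock against 1142, 2084 and 1975 in HIF-1α-KD (log2 fold change -0.15, SE 0.24, limma adjusted p = 0.833, and 0.13 without replicate 1), and Dtx3l had 1486, 1350 and 1488 against 942, 1663 and 1527. Parp14, a mono-ADP-ribosyltransferase, had 751, 1183 and 1172 in Mock against 827, 2248 and 1788 in HIF-1α-KD. HIF-1α-KD replicates 2 and 3 were above all Mock libraries for Parp14, and replicate 1 was not (log2 fold change 0.56, SE 0.36, limma adjusted p = 0.552, with 0.98 without replicate 1 and 0.26 without replicate 2). Whether reads were counted by strand is not given in the sources used here, so reads of the overlap of Parp9 and Dtx3l may not be assigned to either with certainty.

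The guanylate-binding proteins and immunity-related GTPases, attack membranes around intracellular microbes. With Mx1, all 6 GTPases had log2 fold changes above 0, with a median of 0.32, where 6332 of the 12014 genes tested were above 0, and none passed the test. Without HIF-1α-KD replicate 2, 3 of the 6 were above 0, and Gbp2, Gbp3 and Irgm1 were at -0.12, -0.31 and -0.24. All 6 were lowest in HIF-1α-KD replicate 1, as most members were, and 5 were highest in HIF-1α-KD replicate 2. Gbp2 (chr3:142620602-142638008) had 2974, 2601 and 5011 in Mock against 2072, 10040 and 4678 in HIF-1α-KD, so that HIF-1α-KD replicate 1 was its lowest and replicate 2 its highest library (3529 ± 1297 and 5597 ± 4063, SD, n = 3, log2 fold change 0.44, SE 0.50, limma adjusted p = 0.751). Gbp7 (chr3:142530342-142550149), in the same cluster, had 281, 442 and 338 in Mock against 253, 916 and 747 in HIF-1α-KD. HIF-1α-KD replicates 2 and 3 lay above all Mock libraries and replicate 1 below them. The log2 fold change of Gbp7 was 0.68 (SE 0.44, limma adjusted p = 0.556). With HIF-1α-KD replicate 1 left out it was 1.25 (SE 0.24, limma adjusted p = 0.0837), the smallest adjusted p of the members in that comparison. With HIF-1α-KD replicate 2 left out instead, the log2 fold change of Gbp7 was 0.32.

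Gbp3, the third member of that cluster, had 890, 813 and 1553 in Mock against 442, 2419 and 1595 in HIF-1α-KD, and Igtp, which encodes Irgm3, had 921, 1017 and 1768 against 801, 3582 and 1996. For both, HIF-1α-KD replicate 2 was above every other library. Irgm1, a regulator of the other GTPases, had 1506, 1158 and 2002 in Mock against 881, 2380 and 1863 in HIF-1α-KD, with the same library highest. Mx1 had 94.8, 142 and 173 in Mock against 90.1, 155 and 253 in HIF-1α-KD, with replicate 3 highest. In HIF-1α-KD replicate 2 the ratio to the median of the other 5 libraries was 3.52 for Igtp, 3.38 for Gbp2, 2.72 for Gbp3, 2.71 for Gbp7 and 2.53 for Zbp1. Over all members, HIF-1α-KD replicate 2 was the highest library for 13 of 37, against 11.9% of all genes, and replicate 3 for 12, against 18.4%. The macrophage and monocyte marker sum in HIF-1α-KD replicate 2, 4127, was below that of every Mock library, and its T and NK cell marker sum was 10.8, within the Mock range of 6.70 to 16.9. In HIF-1α-KD replicate 3 the same sums were 19216 and 22.0, each above every Mock library. Close copies within the Gbp and Irgm families could share reads, so single values of these genes are uncertain.

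Of the remaining members, Ifi44, a cytoplasmic protein, had 881, 873 and 1004 in Mock against 164, 976 and 1246 in HIF-1α-KD, and Rtp4, a Golgi chaperone of receptors, had 339, 274 and 282 against 63.5, 290 and 329. In both, HIF-1α-KD replicate 1 was several-fold below all others while replicates 2 and 3 were within or above the Mock range (Rtp4 log2 fold change -0.70, SE 0.55, limma adjusted p = 0.632, and 0.06 without replicate 1). Xaf1, a proapoptotic factor, had 783, 680 and 989 in Mock against 299, 842 and 914 in HIF-1α-KD. Lgals3bp had 3149, 4669 and 4880 in Mock against 1918, 6127 and 5550 in HIF-1α-KD, lowest in replicate 1 and highest in replicate 2 (log2 fold change -0.05, SE 0.41, limma adjusted p = 0.972, and 0.49 without replicate 1). Ifi35, a leucine zipper protein, differed little, with 1163, 1170 and 1267 in Mock against 913, 1535 and 1439 in HIF-1α-KD (log2 fold change 0.08, SE 0.21, limma adjusted p = 0.909).

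**Figure D4:**
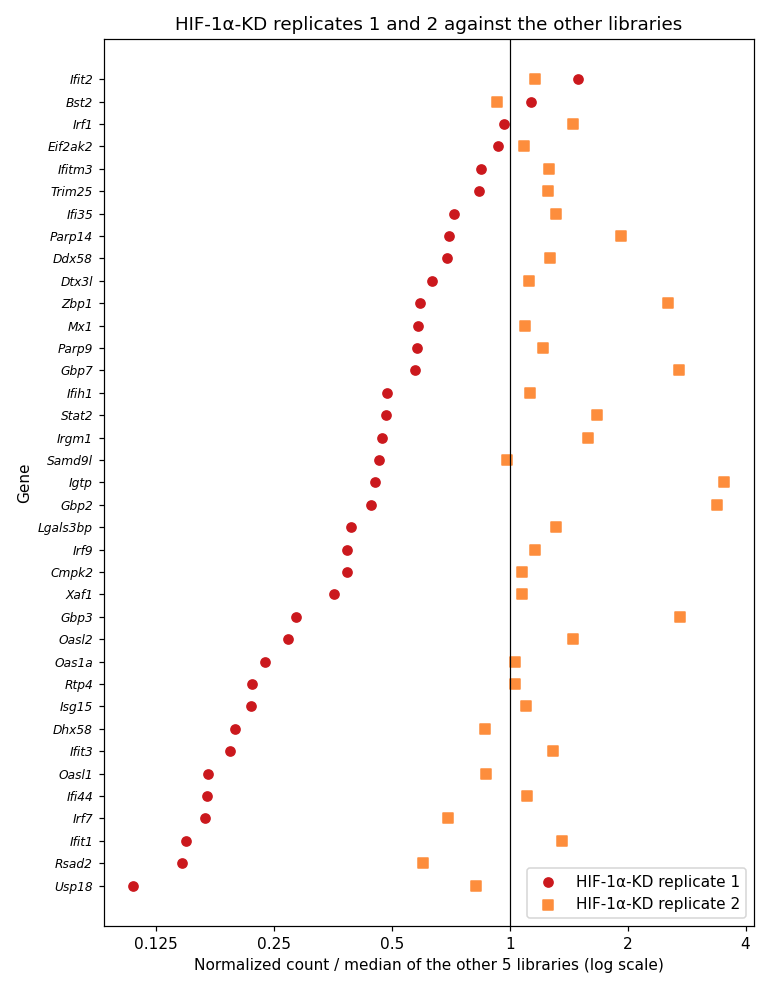
Normalized count of HIF-1α-KD replicate 1 (circles) and HIF-1α-KD replicate 2 (squares) divided by the median of the other 5 libraries (horizontal, log scale), for each of the 37 members (vertical, sorted by the circles). Replicate 1 ranges from 0.11 for Usp18 to 1.49 for Ifit2, and replicate 2 reaches 3.52 for Igtp.

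Sorted by role, the median ratio of HIF-1α-KD replicate 1 to the other 5 libraries was 0.19 for the IFIT family, 0.22 for the ISG15 system, 0.24 for the OAS family, 0.36 for the other interferon-induced genes, 0.43 for the transcription factors, 0.46 for the GTPases and the antiviral effectors, 0.59 for the sensors and 0.63 for Parp9, Parp14 and Dtx3l. The order of these groups, of 3 to 6 genes each, is a description only. Set beside presence of the ISRE core in a window, without a test, this ratio had overlapping ranges. Its median was 0.46 for the 16 members with the core (range 0.15 to 1.13), 0.39 for the 14 with windows but without it (range 0.17 to 1.49) and 0.58 for the 7 without a window. Members whose stretches are printed above lay at both ends, with Ifit1 and Rsad2 at 0.15 and Bst2 at 1.13. By position, 13 members lay within 200 kb of another member, in 5 clusters, and the 37 were spread over 14 chromosomes.

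Without HIF-1α-KD replicate 1, the log2 fold change was above 0 for 32 members and below 0 for 5 (Irf7, Usp18, Oasl1, Rsad2 and Cmpk2), with a median log2 fold change of 0.30 (all genes 0.03). Of all 12176 genes in this comparison, 6579 were above 0. In this comparison the unadjusted limma p was under 0.05 for 10 of 37 members, against 11.8% of all genes. The 9 higher were Gbp7, Igtp, Gbp2, Parp14, Gbp3, Stat2, Oasl2, Lgals3bp and Irf1, with log2 fold changes from 1.25 to 0.43, and the 1 lower was Rsad2. None of the 37 members had a limma adjusted p under 0.05, where 0.312% of all genes did. The median log2 fold change of the members thus had the opposite sign with and without this 1 library. Leaving out HIF-1α-KD replicate 2 or replicate 3 instead, 11 members were higher and 26 lower in either case.

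**Figure D5:**
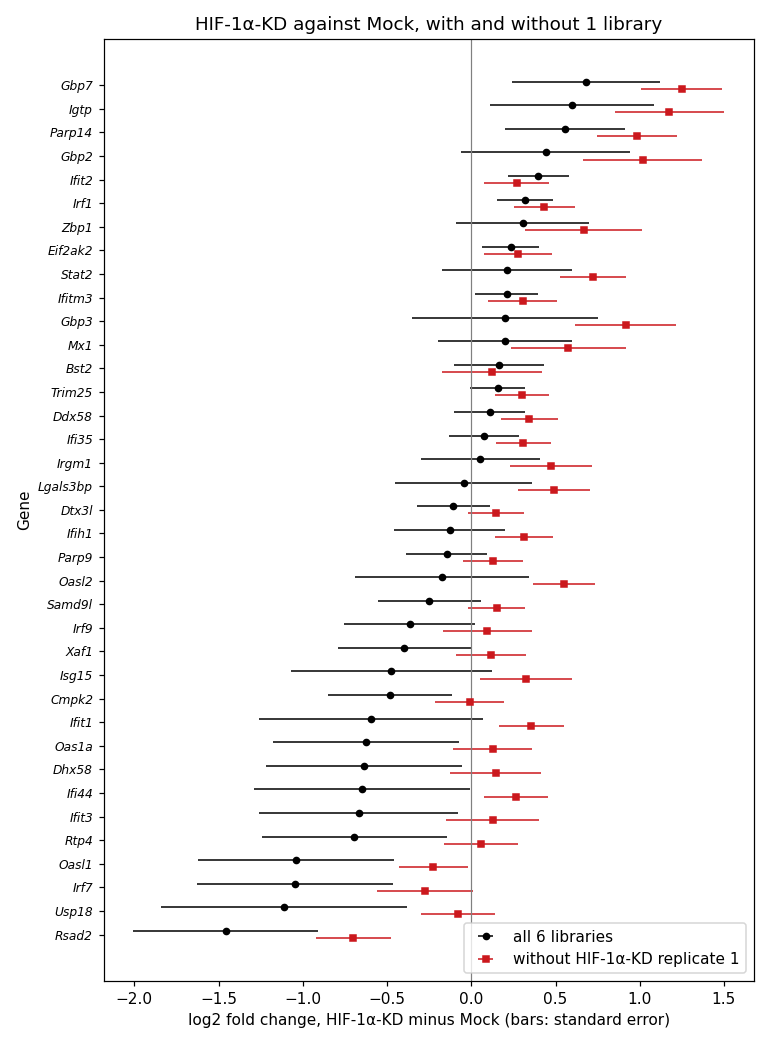
The log2 fold change of HIF-1α-KD against Mock (horizontal, bars are the standard error from limma) for each of the 37 members (vertical), with all 6 libraries (black circles) and without HIF-1α-KD replicate 1 (red squares). Without that library 32 of 37 members lie above 0, against 17 with it, and Rsad2 stays below 0.

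Upstream of the members, a list of 37 genes covered ligands, receptors, signaling and sensing. Of 9 interferon ligand genes, 8 were at 0 reads in all 6 libraries, which allows a true level of up to 3 reads over the 6 together. Cells with CD45 or CD31 had been sorted out, so these values do not measure ligand transcripts of such cells in the tumor. Ifnb1 had 7, 4 and 0 reads in Mock against 1, 3 and 1 in HIF-1α-KD, near the floor of 3 reads per library, so that no difference was detectable at this depth. Of the 27 pathway genes tested, 19 were higher and 8 lower in HIF-1α-KD, where 6332 of all 12014 genes tested were higher. Of these 27, 0 had a limma adjusted p under 0.05 (all genes 0.391%). An unadjusted limma p under 0.05 was found for 4, namely Tmem173, Traf3, Ptpn6 and Ifngr2, all higher, where 12.7% of all genes were past that limit. None of the 27 was under 0.5 times the median of the others in HIF-1α-KD replicate 1, where 7.39% of all genes were, and their median ratio there was 0.98.

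Among the receptors, HIF-1α-KD replicate 1 held the highest value of Ifnar1, Ifngr1 and Ifngr2, but not of Ifnar2. Ifnar1 had 1392, 1417 and 1225 in Mock against 1926, 1516 and 1264 in HIF-1α-KD, and Ifnar2 had 901, 802 and 978 against 784, 961 and 877. Of the receptor for interferon gamma, Ifngr1 had 2569, 2779 and 3813 in Mock against 6799, 4474 and 2795 in HIF-1α-KD, and Ifngr2 had 1330, 1308 and 1579 against 1942, 1815 and 1595 (log2 fold change 0.34, SE 0.15, limma adjusted p = 0.391). Il10rb, a chain shared by the receptors of interferon lambda and of related cytokines, had 904, 743 and 643 against 795, 827 and 685, with groups that overlapped, and Ifnlr1, the other chain of the latter, had at most 2 reads in any library.

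Tmem173, which encodes the DNA-sensing adaptor STING, had 1737, 1573 and 2032 in Mock against 3145, 3469 and 2244 in HIF-1α-KD, without overlap (log2 fold change 0.71, SE 0.19, limma adjusted p = 0.245). It was the 1 of 27 pathway genes with an adjusted p under 0.05 by DESeq2 (all genes 2.36%). Traf3, an adaptor of the sensing pathways, had 845, 1219 and 865 in Mock against 1483, 1502 and 1276 in HIF-1α-KD (log2 fold change 0.56, SE 0.18, limma adjusted p = 0.296). Ptpn6, a phosphatase mostly of blood cells, had 78.8, 90.0 and 74.9 in Mock against 224, 85.1 and 245 in HIF-1α-KD (log2 fold change 1.04, SE 0.40, limma adjusted p = 0.350). HIF-1α-KD replicate 2 was within the Mock range for Ptpn6, and the part of the macrophage markers, which were highest in HIF-1α-KD replicate 3, in its value was not tested.

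A further list of 56 interferon-induced genes that are not members, of which 52 had a single entry and all 52 were tested, showed the same libraries standing apart. HIF-1α-KD replicate 1 was the lowest library for 37 of the 52 and under 0.5 times the median of the others for 25, against 22.1% and 7.39% of all genes. Between the groups 24 were higher and 28 lower, 0 had a limma adjusted p under 0.05, and 2 had an unadjusted p under 0.05, Nlrc5 higher and Isg20 lower (all genes 12.7%). Nlrc5, the transactivator of class I antigen presentation genes, had 347, 503 and 449 in Mock against 592, 853 and 935 in HIF-1α-KD, and was the 1 of 52 with an adjusted p under 0.05 by DESeq2 (all genes 2.36%). Without HIF-1α-KD replicate 1, 40 of the 52 were higher and 12 lower, where 6579 of all 12176 genes in that comparison were higher. Without HIF-1α-KD replicate 2 instead, 17 of the 52 were higher. The largest increases in mean on the log2 scale were those of Cxcl9, Gbp4 and Gbp5, all typical targets of interferon gamma.

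Cxcl9, a chemokine for T cells, had 187, 154 and 835 in Mock against 311, 2990 and 617 in HIF-1α-KD. Gbp4 had 97.3, 88.0 and 284 in Mock against 76.4, 818 and 356 in HIF-1α-KD, and Gbp5 had 164, 176 and 303 against 175, 919 and 441. As for Gbp2 and Igtp, HIF-1α-KD replicate 2 held the highest value of each, and Mock replicate 3 was the highest Mock library. The log2 fold changes were 1.52, 1.06 and 1.00 (2.23, 1.995 and 1.62 without HIF-1α-KD replicate 1, and 0.60, 0.29 and 0.43 without HIF-1α-KD replicate 2), and none passed the test. The largest decreases were those of Ddx60, Slfn2 and Phf11d, with log2 fold changes of -0.96, -0.92 and -0.86, and of -0.12, -0.12 and -0.01 without HIF-1α-KD replicate 1. Ddx60, a helicase that aids RNA sensing, had 508, 368 and 455 in Mock against 70.0, 339 and 485 in HIF-1α-KD. Slfn2 had 330, 321 and 436 against 61.1, 313 and 350, and Phf11d had 469, 346 and 483 against 70.8, 377 and 483. In each of the 3, HIF-1α-KD replicate 1 was far below every other library.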

How the data were processed

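RNA of sorted tumor cells (3 Mock, 3 HIF-1α-KD) was made into poly-A libraries with a strand-marking kit and sequenced on single ends. The authors deposited, for each gene, normalized counts (signal, scaled per library) and FPKM values, with gene width, the GC fraction and their own comparison (log2 ratio, p-value and false discovery rate), which was not used here. The submitters' processing notes name STAR, edgeR and GRCm38, while the methods name DESeq2. Normalized counts were divided by the step of 1 read, and 100% of values up to 300 reads came out whole (tolerance 0.1 reads). Depth was 19845852 to 30809139 reads on genes.

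The main comparison was limma (3.58.1, R 4.3.3) with a mean-variance trend on log2(normalized count + 1), a scale that understates the change of low genes, over 12014 genes kept by filterByExpr (edgeR 4.0.16, minimum count 10) with Benjamini-Hochberg adjustment over all of them, two-sided. Alternatives were the edgeR quasi-likelihood test and DESeq2 (1.42.0) on the recovered reads, limma without trend, TMM and library size scaling, no filter, pseudocounts of 0.1 and 10, a replicate block, and each library left out. The scripts were tested on simulated data. Members and gene lists were chosen with earlier results of these data known. Role groups and markers came from general knowledge. Tests are printed for members with an unadjusted p under 0.05 and, in each role group, for those with the highest mean FPKM, the largest increase and the largest decrease. Of the pathway list, the receptors and genes with an unadjusted p under 0.05 are named, and of the further list the 3 largest increases and 3 largest decreases. Other genes were named after their values were seen. Coordinates are from GENCODE vM21 (GRCm38). Floors cover counting error only. In the list of 56 further genes, 2 symbols had more than 1 entry and 2 had none. Another pathway gene is not reported here.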

Additional observations from a re-analysis of the deposited data

How the results depend on the processing

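The log2 fold changes of 21 named members were compared with 15 alternatives. In 3 of these (limma without trend, no filter, replicate block) the fold change is the same by construction. In the other 252 comparisons 233 kept their direction and 19, in 11 members, did not (7 of them without HIF-1α-KD replicate 1). No member passed the adjusted limit under any of the 15. The median log2 fold change of the members minus that of all genes, -0.13 with limma, was 0.048 by edgeR and 0.048 by DESeq2, and leaving out 1 library moved it from -0.32 to 0.27. For the 52 further interferon-induced genes it was -0.043 by limma, 0.022 by both other tools, and -0.21 to 0.17 with 1 library left out. By DESeq2, 1 pathway gene and 1 further gene had an adjusted p under 0.05, and 4 further genes an unadjusted p under 0.05 (all genes 2.36% and 13%). At an unadjusted p under 0.05 the members numbered 0 and the further genes 1 in limma without trend (all genes 11.6%), and the members 2 with library size scaling (all genes 13.4%). With 1 library left out, this number was 0 to 10 for the members, 2 to 4 for the pathway genes and 2 to 14 for the further genes (all genes 8.43% to 12.8%). The members higher then numbered 11 to 32 and those lower 5 to 26, the pathway genes lower 5 to 12, the further genes higher 17 to 40 and lower 12 to 35. The most members higher, 32, were found without HIF-1α-KD replicate 1, and the fewest, 11, without HIF-1α-KD replicate 2 and also without HIF-1α-KD replicate 3. The 0 at an unadjusted p came without Mock replicate 1 and also without Mock replicate 2.

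Single genes changed sign by tool or library. Oasl2 was 0.084 by edgeR and 0.093 by DESeq2, and Lgals3bp 0.076 by edgeR, 0.085 by DESeq2 and 0.011 with library size scaling. With 1 library left out, the log2 fold change ran from -0.58 to 0.55 for Oasl2, -0.35 to 0.49 for Lgals3bp, -1.07 to 0.13 for Ifit3, -0.98 to 0.33 for Isg15, -0.30 to 0.13 for Parp9, -1.15 to 0.14 for Dhx58, -1.12 to 0.060 for Rtp4, -0.037 to 0.68 for Zbp1, -0.12 to 1.02 for Gbp2, -0.065 to 0.31 for Ifi35 and -0.038 to 0.35 for Ddx58. The cause was not tested. HIF-1α-KD replicate 1 was lowest for 31 members with TMM scaling and 29 with library size scaling, both chosen after seeing the data.

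With a block for replicate number, 3 members and 4 further genes had an unadjusted p under 0.05 (all genes 11%), and 0 members an adjusted one (all genes 0%). The deviations of libraries with the same number correlated at -0.14, -0.12 and 0.02, and no source used here says that a number marks a shared animal, batch or day, so the numbers were not taken as pairs.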
